A study of Mus musculus with 10 samples.

Results

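The heat shock and DnaJ chaperone genes are the HSP90 genes, the HSP70 and HSP110 genes (symbols in Hspa and Hsph), the small heat shock genes (Hspb), the mitochondrial chaperonin pair Hspd1 and Hspe1, and the DNAJ co-chaperones (Dnaja, Dnajb and Dnajc). They were chosen by symbol, with pseudogenes and the similarly named Hspbap1 and Hspbp1 left out, and by a mean of at least 1 FPKM (fragments per kilobase of transcript, scaled to the fragments of the library) over the libraries of an age. Of 70 matching symbols, 61 passed at 3 months among 12200 genes that passed in all, and 63 passed at 12 months among 13179. The 61 genes of the 3-month set also passed at 12 months. Hspa1a and Hspa1b passed at 12 months only, through their level in the knockout libraries, and the other 7 symbols (Dnajb3, Dnajb7, Dnajb8, Dnajb13, Dnajc6, Dnajc22 and Hspb9) stayed under 1 FPKM at both ages.

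The study measured RNA of mouse hearts by sequencing. Hearts of Prdm16 knockout mice were set against hearts of control mice, with 3 libraries a group at 3 months of age and 2 libraries a group at 12 months. Prdm16 encodes a zinc finger transcriptional regulator that carries a PR domain. The sources used here name neither the targeted allele, a Cre driver, the strain nor the sex of the mice, and do not say whether the controls carried a modified allele or whether each library came from a different animal. The p-values therefore measure the spread between these libraries, which may be technical. The 3-month libraries were made with a directional kit, and the 12-month libraries were made at a sequencing institute with its own preparation, so levels were compared within an age only.

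Prdm16 itself did not separate the labels at 3 months, with 1.43, 0.760 and 2.03 FPKM in knockout hearts against 1.44, 2.23 and 1.61 FPKM in control hearts. At 12 months it had 4.02 and 3.58 FPKM in knockout hearts against 6.31 and 5.05 FPKM in control hearts, a difference that did not pass the test (limma adjusted p = 0.340). A value per gene does not show whether a deleted exon is missing. The hearts carried the defining markers of cardiomyocytes: 11 of 11 marker genes were measured, and their summed level was 38894 to 40149 FPKM in knockout hearts against 30470 to 38139.7 FPKM in control hearts at 3 months, and 72223 to 73340.0 FPKM in knockout hearts against 68696 to 68730.4 FPKM in control hearts at 12 months. Other contents of the libraries also differed between the groups. Of 8 atrial marker genes, 7 were higher in knockout hearts of 3 months and 3 in those of 12 months. They summed to 12355 to 28775 FPKM in knockout hearts against 723 to 6251 FPKM in control hearts at 3 months, and to 13724 to 15973 FPKM in knockout hearts against 6231 to 6392 FPKM in control hearts at 12 months. All 6 red blood cell genes tested were higher in knockout hearts at 3 months and lower at 12 months, 5 of them past the test at each age. They summed to 2093 to 3123 FPKM in knockout hearts against 827 to 1121 FPKM in control hearts at 3 months, but to 1985 to 2184 FPKM in knockout hearts against 10712 to 10848 FPKM in control hearts at 12 months. The female-specific transcript Xist had 0.0911 and 0.0240 FPKM in knockout hearts of 12 months against 33.1 and 31.04 FPKM in control hearts, and the Y-linked Ddx3y 24.5 and 20.7 FPKM in knockout hearts against 0.0352 and 0.0114 FPKM in control hearts, so that sex and genotype cannot be told apart at that age. At 3 months these transcripts did not separate the groups: Xist reached at most 0.490 FPKM and Ddx3y lay at 16.5 to 19.9 FPKM over all libraries. Airway genes were at 0.151 to 0.364 FPKM in knockout hearts of 3 months against 14.3 to 38.7 FPKM in control hearts, and adipocyte genes at 11.1 to 13.5 FPKM in knockout hearts of 12 months against 79.5 to 82.7 FPKM in control hearts. At 12 months fibroblast genes summed to 786 to 887 FPKM in knockout hearts against 1090.1 to 1099 FPKM in control hearts (6 of 8 lower at an unadjusted p under 0.05), and smooth muscle and pericyte genes to 368 to 374 FPKM in knockout hearts against 463 to 466 FPKM in control hearts (7 of 8 lower). At 3 months all 7 lymphocyte and neutrophil genes and all 5 skeletal muscle genes tested were higher in knockout hearts, 2 and 1 of them past the test. At 12 months 6 of 7 lymphocyte and neutrophil genes tested were lower in knockout hearts (median -0.94). Of these, 3 were lower at an unadjusted p under 0.05 in limma, and 0 passed the adjusted test. The part of these contents in the chaperone results was not tested. The 3-month files gave no depth, while the low values at 12 months put it at 21.7 to 26.4 M reads in knockout libraries and 29.5 to 31.4 M reads in control libraries. Knockout replicate 2 of 3 months stood apart from the other knockout libraries, with a robust SD of log2 ratios of 0.284 and 0.314 to them against 0.145 between them, and the 2 knockout libraries of 12 months differed by 0.416 against 0.113 between the controls. In bulk RNA of a heart, fewer cells of a type and less RNA per cell cannot be told apart.

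Molecular chaperones bind proteins that are unfolded or on their way to a final fold. HSP70 proteins bind and release short stretches of a client in a cycle of ATP hydrolysis, DNAJ proteins bring clients to them and trigger that hydrolysis, and HSP110 proteins exchange the nucleotide. HSP90 proteins take over later steps for kinases and receptors, and small heat shock proteins hold clients without ATP and are abundant in striated muscle, where they lie on sarcomeres and desmin filaments. The heat shock factor HSF1 turns on many of the cytosolic members, whereas the unfolded protein response turns on those of the endoplasmic reticulum (ER).

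In knockout hearts of 3 months 11 of 13 ER members were higher on average, as were Hspb3 and Hspb2, while Hspb8, Hspa8 and Hspa9 were lower, none of which passed the test over all genes. The 3-month differences are given as log2(FPKM + 1) in knockout minus control with their standard error, a scale that understates the difference of genes at low level. With limma and Benjamini-Hochberg adjustment, 0 of 61 members passed an adjusted p of 0.05, against 0.746% of all genes tested (0.623% higher and 0.123% lower). At an unadjusted p under 0.05 there were 19 members, 15 higher and 4 lower, which is 31.1% of the members against 18.2% of all genes (15.9% higher and 2.30% lower). The libraries of the groups did not overlap in 17 members, 15 of them higher and 2 lower in knockout hearts, against 24.7% of all genes (20.1% higher and 4.60% lower). In all 43 of the 61 members (70.5%) were higher on average, against 65.0% of all genes. The median difference was 0.12 over the members and 0.09 over all genes tested, so the members as a group lay close to the rest of the table.

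**Figure D1:**
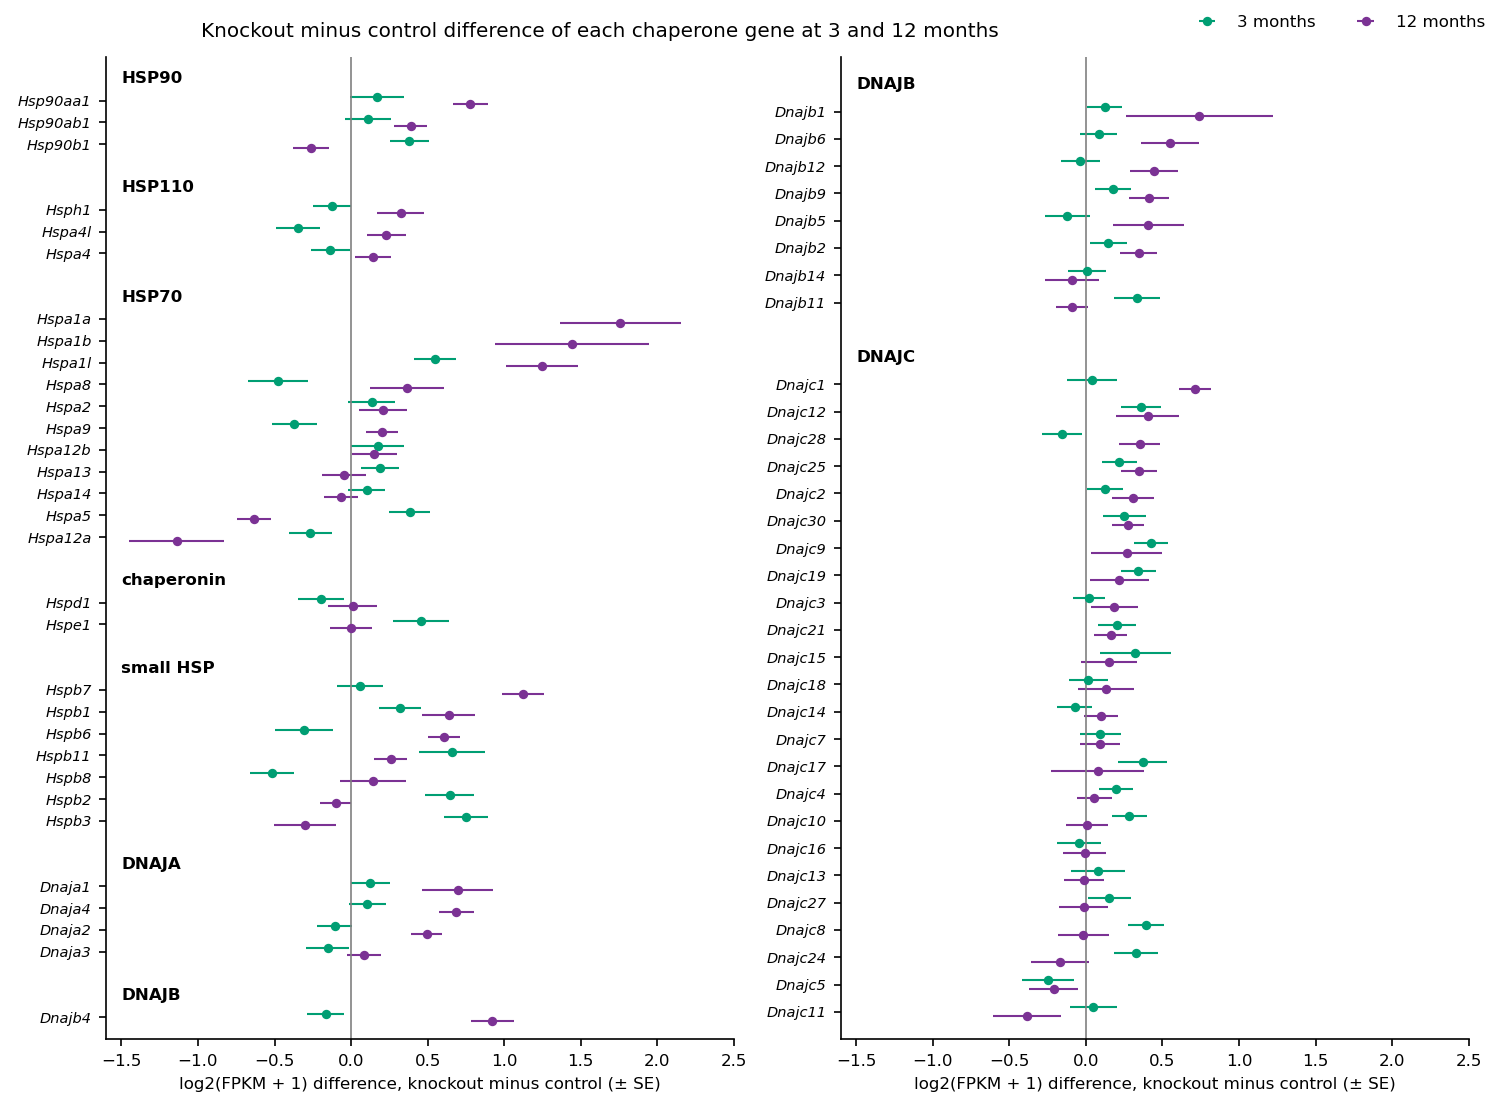
Log2(FPKM + 1) difference, knockout minus control, of each chaperone gene with its standard error, by family, at 3 months (green) and 12 months (purple); Hspa1a and Hspa1b were under 1 FPKM at 3 months. Hspb7, Dnajb4 and Hsp90aa1 lie to the right at 12 months and near 0 at 3 months, and Hspa5 and Hsp90b1 lie on opposite sides of 0 at the 2 ages.

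The 2 main ER chaperones lay in opposite order at the 2 ages. Hspa5, also known as BiP, is the HSP70 of the ER and the sensor partner of the unfolded protein response. It had 231, 245 and 220.0 FPKM in knockout hearts of 3 months against 184, 195 and 156 FPKM in control hearts. At 12 months it had 198 and 214 FPKM in knockout hearts against 319 and 320.5 FPKM in control hearts. On the FPKM scale each knockout library thus lay above each control library at 3 months and below each at 12 months. With every library rescaled to the same total (TPM), control replicate 2 of 3 months lay above each knockout library, so the 3-month groups overlapped. The log2 difference was 0.38 ± 0.13 at 3 months (SE, n = 3 libraries a group, limma adjusted p = 0.199) and -0.63 ± 0.11 at 12 months (SE, n = 2, limma adjusted p = 0.188). Neither passed at its own age, but the difference between them, 12 months minus 3 months, was -1.02 ± 0.19 and passed in a limma fit over all 10 libraries (adjusted p = 0.0276 over 11580 genes). Red blood cell genes had the same order as Hspa5, higher at 3 months and lower at 12 months. Lymphocyte and neutrophil genes were also mostly higher at 3 months and lower at 12 months. The part of both was not tested.

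Hsp90b1, also known as GRP94, is the HSP90 of the ER. It had 112, 126 and 116 FPKM in knockout hearts of 3 months against 91.5, 98.9 and 81.4 FPKM in control hearts, and 252 and 274 FPKM in knockout hearts against 305 and 327 FPKM in control hearts at 12 months. On the FPKM scale its groups did not overlap at either age and lay in opposite order, as for Hspa5. With TPM its groups also overlapped at 3 months. The log2 difference was 0.38 ± 0.13 at 3 months and -0.26 ± 0.12 at 12 months, and the difference between the ages of -0.65 ± 0.18 did not pass (limma adjusted p = 0.116). Dnajb11, an ER co-chaperone of BiP, showed the same order with smaller steps at 12 months: 22.8, 33.9 and 26.1 FPKM in knockout hearts against 22.0, 20.9 and 21.3 FPKM in control hearts at 3 months, and 36.6 and 38.9 FPKM in knockout hearts against 40.0 and 40.5 FPKM in control hearts at 12 months.

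The ER members did not all follow this pattern. Dnajc3, also known as p58IPK, a BiP co-chaperone that inhibits an unfolded protein response kinase, differed by 0.02 ± 0.10 at 3 months and 0.19 ± 0.15 at 12 months. Dnajc1, an ER membrane co-chaperone of BiP, had 15.8 and 15.7 FPKM in knockout hearts of 12 months against 9.09 and 9.36 FPKM in control hearts, and overlapped at 3 months. Dnajb9, a BiP co-chaperone that guides misfolded proteins to degradation, had 25.6 and 30.4 FPKM in knockout hearts of 12 months against 20.7 and 20.8 FPKM in control hearts. Over the 13 ER members, 11 were higher in knockout hearts at 3 months (median 0.18) and 7 at 12 months (median 0.01, and -0.29 on the TPM scale, where the median of all genes was -0.27).

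The promoters of the 3 members that hold the ER stress element, and 1 promoter with a heat shock element, are shown because these are the sequence features textbook models tie to the ER and the cytosolic response. RefSeq gives a promoter window, 250 bases before to 50 bases after the start site, for 51 of 63 members on build GRCm38.p6. The ER stress element was searched on both strands as CCAAT, then 9 bases of any kind, then CCACG, a motif chosen after the values of Hspa5 and Hsp90b1 were seen. It is in 3 of the 51 members (Hspa5, Hsp90b1 and Dnajc3), which is 5.88% of the members, and in 37 of the 27025 mouse genes with a window, which is 0.137%. These shares are a description only, since the motif was not chosen independently of Hspa5 and Hsp90b1. Dnajc3 carries it and did not show the pattern of the other two. Each line gives bases before the start site from 5′ to 3′ on the gene's strand, with the element in capitals: Hspa5 at chr2:34771840-34772089 on the plus strand, Hsp90b1 with 2 elements in opposite orientation at chr10:86705445-86705694 on the minus strand, and Dnajc3 at chr14:118937682-118937931 on the plus strand.
Hspa5: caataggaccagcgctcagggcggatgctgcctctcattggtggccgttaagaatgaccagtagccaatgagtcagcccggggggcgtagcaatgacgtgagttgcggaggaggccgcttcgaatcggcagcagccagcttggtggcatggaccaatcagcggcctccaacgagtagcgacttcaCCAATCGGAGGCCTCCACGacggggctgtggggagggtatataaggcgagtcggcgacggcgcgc
Hsp90b1: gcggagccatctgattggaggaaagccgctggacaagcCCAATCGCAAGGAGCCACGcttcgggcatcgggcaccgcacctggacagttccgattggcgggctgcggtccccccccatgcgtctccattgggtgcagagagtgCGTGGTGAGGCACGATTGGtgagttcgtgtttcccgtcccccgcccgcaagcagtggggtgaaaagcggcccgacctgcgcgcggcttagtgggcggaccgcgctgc
Dnajc3: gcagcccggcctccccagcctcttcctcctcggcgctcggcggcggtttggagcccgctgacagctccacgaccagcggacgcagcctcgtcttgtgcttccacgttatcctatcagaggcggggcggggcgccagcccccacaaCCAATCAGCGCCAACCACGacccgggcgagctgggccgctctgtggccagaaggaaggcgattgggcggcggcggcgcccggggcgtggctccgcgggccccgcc

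The heat shock element was searched on both strands as 3 units, GAA, TTC and GAA, with 2 bases of any kind between units, or TTC, GAA and TTC as its reverse complement. It is in 4 of the 51 members (Hspd1, Hspe1, Hsph1 and Dnajb6), 7.84% of them, and in 179 of the 27025 genes, 0.662%. Hspd1 and Hspe1, which encode the mitochondrial HSP60 and its HSP10 lid, lie head to head on chromosome 1 and share the stretch with the element, so they count as 1 element. It is shown for Hspe1 at chr1:55087948-55088147 on the plus strand, where 2 overlapping matches form the capitals.
Hspe1: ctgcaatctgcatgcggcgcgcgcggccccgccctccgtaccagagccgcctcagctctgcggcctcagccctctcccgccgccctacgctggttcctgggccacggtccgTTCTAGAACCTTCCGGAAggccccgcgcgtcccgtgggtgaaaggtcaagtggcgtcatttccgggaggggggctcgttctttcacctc
No match means only that these letters are not in the window. Dnajb4, the other member whose difference changed between ages, has 2 windows and neither motif in them.

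**Figure D2:**
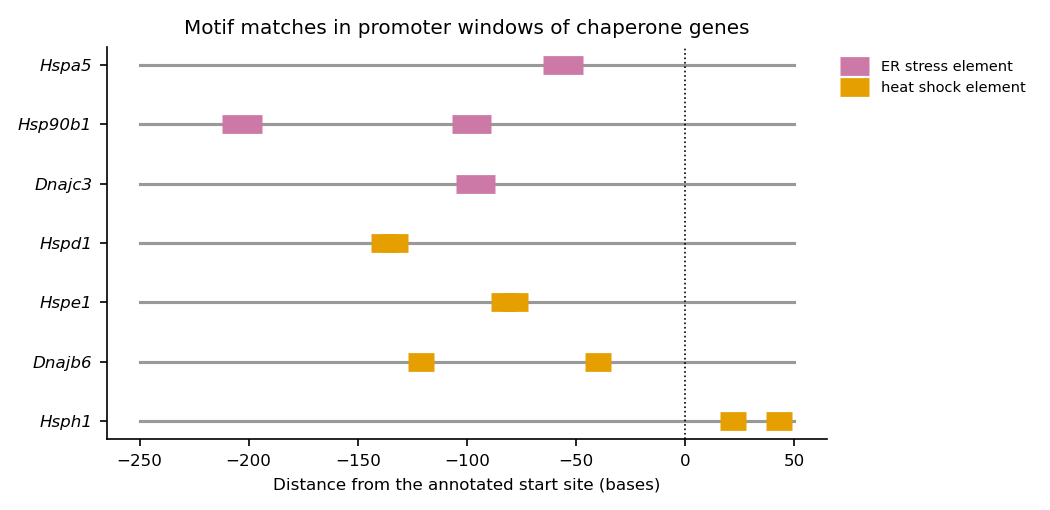
Positions of the ER stress element (pink) and the heat shock element (orange) in the promoter windows of the 7 members that hold one, in bases from the RefSeq start site (dotted line); Dnajb6 and Hsph1 hold 1 element each, drawn from 2 annotated start sites. The ER stress elements of Hspa5, Hsp90b1 and Dnajc3 lie between -212 and -47 bases.

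Dnajb4 was the member with the lowest p for a difference between ages. It encodes a cytosolic DNAJ protein of the heat-inducible class that works with HSP70 and, in humans, is linked to a myopathy. It had 28.5, 27.5 and 28.9 FPKM in knockout hearts of 3 months against 33.5, 34.4 and 27.9 FPKM in control hearts, where the groups overlapped. At 12 months it had 74.1 and 60.9 FPKM in knockout hearts against 34.5 and 35.5 FPKM in control hearts, with both knockout libraries far above both control libraries. The log2 difference was -0.17 ± 0.12 at 3 months (SE, n = 3, limma adjusted p = 0.497) and 0.92 ± 0.14 at 12 months (SE, n = 2, limma adjusted p = 0.167), and the difference between ages of 1.09 ± 0.19 passed (limma adjusted p = 0.0198).

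Dnajb4 and Hspa5 were the members that passed this test among the 61, which is 3.28% of them, while 1.38% of all genes passed. At an unadjusted p under 0.05 there were 21 members, 34.4% of them, against 15.3% of all genes. Both calls rest on few libraries: the adjusted p of Dnajb4 ran between 0.00764 and 0.189 over 18 alternatives and missed 0.05 in 8 of them, and that of Hspa5 ran between 0.0226 and 0.181 and missed it in 7. The direction stayed the same in each of the 18. Without control replicate 1 or 2 of 12 months neither passed. The next 3 members by p were Hspb7 (1.07 ± 0.23, adjusted p = 0.0520), Hspb3 (-1.05 ± 0.25, adjusted p = 0.0718) and Dnaja2 (0.60 ± 0.16, adjusted p = 0.0941). Groups that did not overlap at either age and lay in opposite order were seen for 5 members (Hspa5, Hsp90b1, Dnajb11, Hspb2 and Hspa9), 8.20% of them, against 5.03% of all genes. That count is on the FPKM scale. With TPM only Hspb2 of these genes kept that order, since the others overlapped at 3 months. Hspa1l, Hspb1, Dnajc12 and Dnajc25 were higher without overlap at both ages, 6.56% of the members against 8.27% of all genes in the same direction at both.

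**Figure D3:**
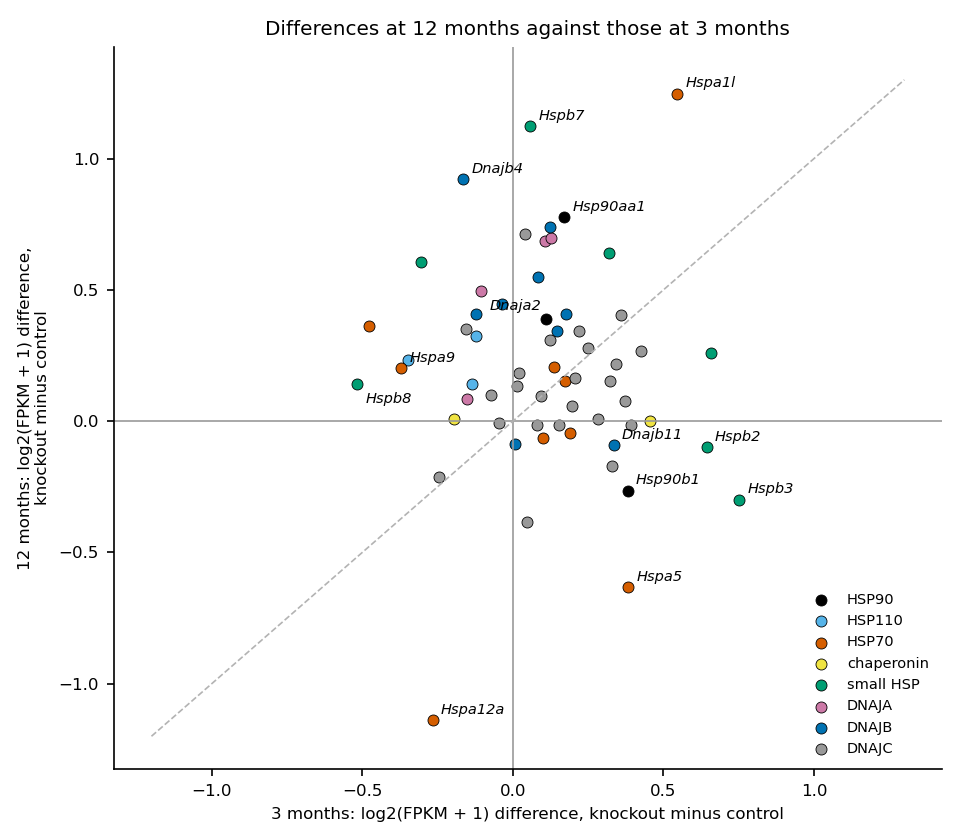
Log2(FPKM + 1) difference, knockout minus control, at 12 months (vertical axis) against that at 3 months (horizontal axis) for the 61 members tested at both ages, coloured by family; the dashed line marks equal differences. Dnajb4 (-0.17 and 0.92) and Hspa5 (0.38 and -0.63) are the 2 members far from the line that passed the test between ages.

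In knockout hearts of 12 months 32 of the 41 members outside the ER and mitochondrial lists were higher on average (78.0%, against 51.5% of all genes). That count holds Hspa1a and Hspa1b, which are set apart below. Again 0 of 63 members passed with limma and Benjamini-Hochberg adjustment, against 0.395% of all genes (0.167% higher and 0.228% lower), and the lowest adjusted p was 0.110, for Hspb7. At an unadjusted p under 0.05 there were 20 members, 18 higher and 2 lower, which is 31.7% of the members against 13.6% of all genes (7.58% higher and 5.98% lower). The groups did not overlap in 39 members, 32 higher and 7 lower, or 61.9% against 50.3% of all genes. The share that was higher without overlap was 50.8% of the members against 27.3% of all genes, and 23.0% of all genes were lower without overlap. The median difference was 0.20 over the members and 0.01 over all genes. On average 47 of the 63 were higher (74.6%), against 51.5% of all genes. Hspa1a and Hspa1b, which passed the filter only through the knockout libraries, are 2 of the members counted as higher. Without them 45 of 61 were higher, 16 at an unadjusted p under 0.05 and 30 without overlap, and the median was 0.19. Rescaling each library to TPM (transcript abundance with the same total in every library) moved the median of all genes at 12 months to -0.27 and that of the members to -0.12, so the members remained above the median gene but the sign of their median turned. Other 12-month values on the TPM scale are to be read against that median of -0.27. Median-of-ratios scaling left the 12-month medians at 0.01 for all genes and 0.20 for the members. The count of calls rested on single libraries. It rose among the members and among all genes without either knockout replicate, and no call was left without either control. In those fits the lone library left is assumed to vary like the pair of the other group. Their counts are therefore not read as results about the members. In 1 fit over all 10 libraries, 437 of 11580 genes and 6 of 61 members passed at 12 months. Among these members were Hspb7 (limma adjusted p = 0.00805), Dnajb4 (0.00805), Hspa1l (0.00872), Hspa12a (0.0293) and Hspa5 (0.0399).

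Summed over the members the level was 6485 ± 18.5 FPKM in knockout hearts and 4998 ± 53.3 FPKM in control hearts (SD, n = 2 each), with an exact two-sided permutation p of 0.333, the smallest that 2 against 2 libraries can give. At 3 months the sums were 3908 ± 78.3 FPKM in knockout hearts and 3894 ± 436 FPKM in control hearts (SD, n = 3 each, exact permutation p = 0.900). The FPKM of all genes also summed to more in the knockout libraries of 12 months, so that the members' share of the sum was 0.607% and 0.553% in knockout hearts against 0.557% and 0.561% in control hearts, and the groups overlapped.

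Hspb7, the cardiovascular small heat shock protein, had the highest mean level of the members over all libraries of each age, though in control hearts of 12 months Hspa8 was higher. It had 1138 and 1348 FPKM in knockout hearts of 12 months against 567 and 568 FPKM in control hearts, a log2 difference of 1.12 ± 0.14 (SE, n = 2, limma adjusted p = 0.110). At 3 months the groups overlapped, with 721, 637 and 748 FPKM in knockout hearts against 683, 764 and 584 FPKM in control hearts. Hspb6, also known as HSP20, which is phosphorylated in the heart after beta-adrenergic stimulation, had 622 and 629 FPKM in knockout hearts of 12 months against 414 and 408 FPKM in control hearts. Hspb1, also known as HSP25 in mice, had 94.0 and 123 FPKM in knockout hearts against 71.5 and 66.2 FPKM in control hearts at 12 months, and 195, 227 and 185 FPKM in knockout hearts against 165, 177 and 146 FPKM in control hearts at 3 months. Its level is uncertain, since 86.6% of the 50-base windows of the annotated pseudogene Hsp25-ps1 are in Hspb1 transcripts, and that pseudogene was listed at 105 and 149.8 FPKM in knockout hearts of 12 months against 73.4 and 76.5 FPKM in control hearts.

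The other small heat shock genes of muscle did not share 1 direction. Hspb3 had the largest log2 difference of the members at 3 months, with 23.3, 27.5 and 23.0 FPKM in knockout hearts against 16.4, 14.5 and 11.9 FPKM in control hearts (0.75 ± 0.14, SE, n = 3, limma adjusted p = 0.0595), and passed at 0.0400 where genes under 5 FPKM were left out of the fit. At 12 months it had 18.3 and 12.9 FPKM in knockout hearts against 18.2 and 20.2 FPKM in control hearts, where the groups overlapped. Hspb2, its partner in a muscle complex, had 112, 159 and 111 FPKM in knockout hearts of 3 months against 85.0, 76.9 and 78.4 FPKM in control hearts, and 88.3 and 87.3 FPKM in knockout hearts against 94.7 and 93.6 FPKM in control hearts at 12 months. Hspb2 overlaps the exons of Cryab, an abundant small heat shock relative on the opposite strand, over 30.2% of its own exonic bases, so reads can be shared where strand was not used in counting. Hspb8, which works with Bag3 in the selective autophagy of damaged muscle proteins, was lower at 3 months with 174, 136 and 179 FPKM in knockout hearts against 239, 241 and 217 FPKM in control hearts (-0.52 ± 0.14, limma adjusted p = 0.149). At 12 months it had 211 and 308 FPKM in knockout hearts against 232 and 229.5 FPKM in control hearts, and the groups overlapped, with a difference of 0.14 that turned to -0.18 on the TPM scale. Hspb11, which works in cilia as an intraflagellar transport protein, differed by 0.66 ± 0.22 at 3 months and 0.26 ± 0.11 at 12 months, the second of which turned to -0.033 on the TPM scale. Of the 7 small heat shock genes, 5 were higher at each age, with a median of 0.32 at 3 months and 0.26 at 12 months, which turned to -0.03 at 12 months on the TPM scale.

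**Figure D4:**
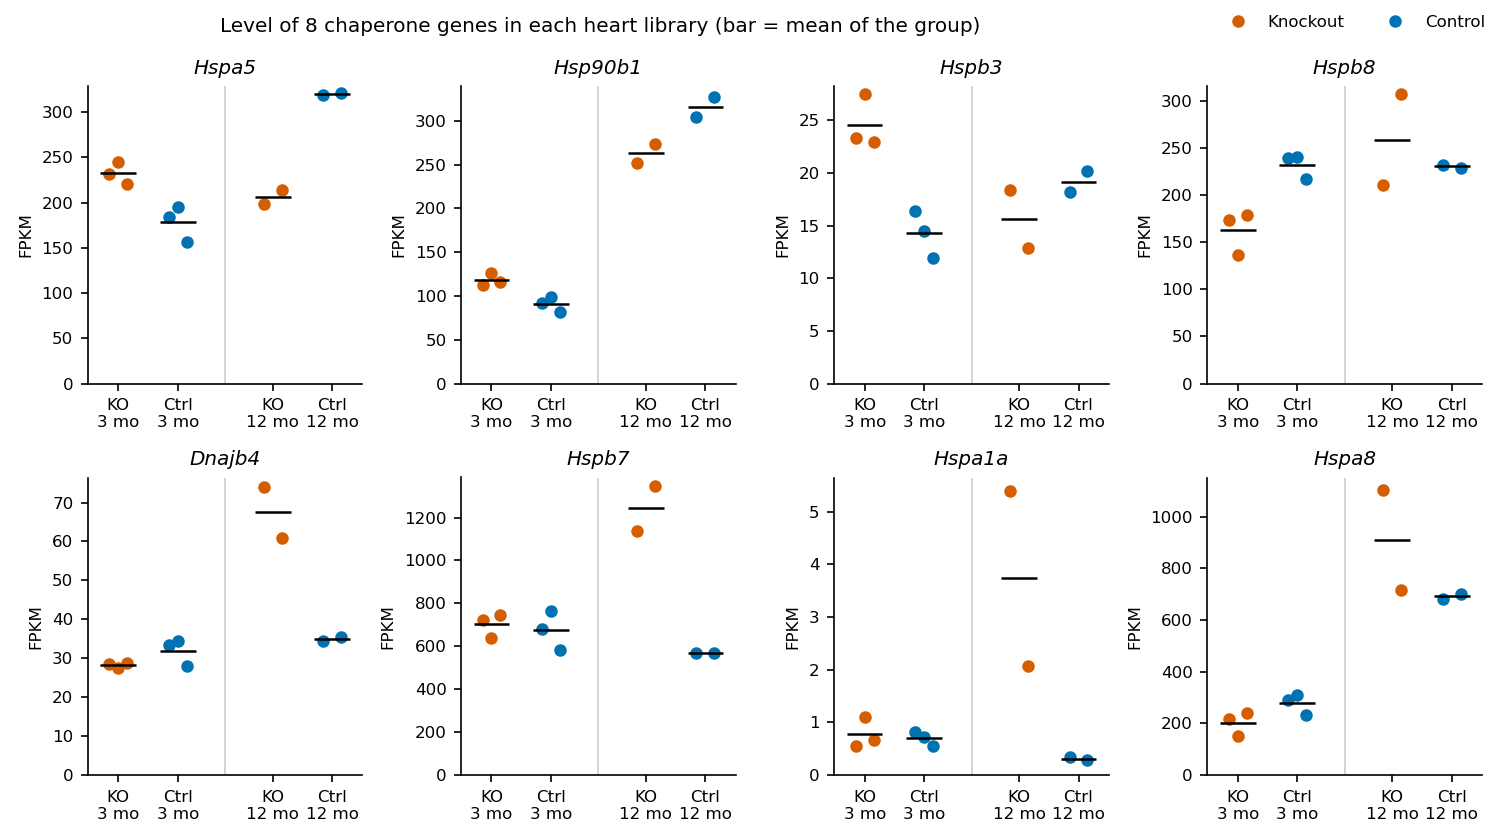
FPKM of 8 members in each library (points) with the group mean (bar), knockout (orange) left of control (blue), at 3 and 12 months; the vertical axes start at 0. Hspa5 and Hsp90b1 lie above control in knockout hearts of 3 months and below it at 12 months, Dnajb4 and Hspb7 are high in both knockout libraries of 12 months, and Hspa1a and Hspa8 are highest in 1 of the 2.

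The stress-inducible HSP70 pair was low in control hearts and higher in both knockout libraries of 12 months. Hspa1a had 5.40 and 2.08 FPKM in knockout hearts against 0.339 and 0.284 FPKM in control hearts, and Hspa1b had 4.59 and 1.16 FPKM in knockout hearts against 0.272 and 0.284 FPKM in control hearts. Knockout replicate 1 was the higher of the 2 for both genes, yet replicate 2 also lay above both controls. The log2 difference was 1.76 for Hspa1a and 1.44 for Hspa1b, and without knockout replicate 1 it was 1.23 and 0.75. Since both genes entered the table of tested genes through their knockout level, these differences are a description and no p is given. The values stand for about 391 and 124 reads of Hspa1a in knockout libraries against 27.7 and 24.5 reads in control libraries. At 3 months both stayed under 1 FPKM on average, with 0.554, 1.10 and 0.674 FPKM of Hspa1a in knockout hearts against 0.822, 0.722 and 0.555 FPKM in control hearts. The pair lies on chromosome 17 with a gap of 9951 bases and shares sequence: 58.8% of the 50-base windows of the Hspa1a transcript are also in Hspa1b, so reads of the 2 genes may be split between them. Their neighbour Hspa1l, an HSP70 gene expressed mainly in testis, had 4.88 and 7.82 FPKM in knockout hearts of 12 months against 2.13 and 1.94 FPKM in control hearts, and 3.26, 2.78 and 3.44 FPKM in knockout hearts against 2.21, 1.87 and 1.49 FPKM in control hearts at 3 months. It was higher without overlap at both ages, with log2 differences of 1.25 ± 0.24 at 12 months and 0.55 ± 0.14 at 3 months, but 71.9% of its exonic bases are also exons of Gm10501 on the opposite strand.

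The constitutive cytosolic HSP70, Hspa8, had 1104 and 717 FPKM in knockout hearts of 12 months against 682 and 700.0 FPKM in control hearts, so that the difference of 0.36 ± 0.24 came mostly from replicate 1. At 3 months it was lower on average, with 215, 151 and 238 FPKM in knockout hearts against 290.0, 310.4 and 234 FPKM in control hearts, and the groups overlapped. Hspa9, the mitochondrial HSP70 that pulls proteins through the import channel, was lower without overlap at 3 months, with 169, 154 and 180.3 FPKM in knockout hearts against 218, 250.3 and 187 FPKM in control hearts, and higher without overlap at 12 months, with 294 and 307 FPKM in knockout hearts against 258 and 265 FPKM in control hearts. On the TPM scale its 3-month groups overlapped, and its 12-month difference of 0.20 turned to -0.12. Hspa12a, a distant HSP70 relative, had the most negative difference of the members at 12 months, with 5.84 and 2.83 FPKM in knockout hearts against 10.2 and 10.3 FPKM in control hearts (-1.14 ± 0.31, limma adjusted p = 0.282).

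Both cytosolic HSP90 genes were higher in knockout hearts of 12 months. Hsp90aa1, the stress-inducible form, had 190.2 and 175 FPKM in knockout hearts against 103 and 109.5 FPKM in control hearts (0.78 ± 0.11, SE, n = 2, limma adjusted p = 0.160). Hsp90ab1, the constitutive form, had 679 and 665 FPKM in knockout hearts against 514 and 512 FPKM in control hearts (0.39 ± 0.11, limma adjusted p = 0.284). On the TPM scale the differences were 0.46 for Hsp90aa1 and 0.065 for Hsp90ab1. Both overlapped at 3 months, with differences of 0.17 ± 0.18 and 0.11 ± 0.15. The 3 HSP110 genes, Hsph1, Hspa4 and Hspa4l, were higher without overlap at 12 months by 0.14 to 0.32, as were 27.3% of all genes, and none reached an unadjusted p under 0.05. They were lower on average at 3 months, with differences of -0.35 to -0.12, and their 12-month median of 0.23 turned to -0.08 on the TPM scale. The mitochondrial chaperonin genes differed by 0.01 ± 0.16 (Hspd1) and 0.00 ± 0.14 (Hspe1) at 12 months, and by -0.31 and -0.32 on the TPM scale. At 3 months Hspd1 differed by -0.19 ± 0.15 and Hspe1 by 0.46 ± 0.18, in opposite directions, and neither passed. The level of Hspd1 is uncertain, since 60.7% of the 50-base windows of its pseudogene Hspd1-ps3 are in Hspd1 transcripts. That pseudogene was listed at 34.4, 24.5 and 37.8 FPKM in knockout hearts of 3 months against 45.2, 54.3 and 35.4 FPKM in control hearts.

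Among the DNAJ co-chaperones the DNAJA and DNAJB families stood highest at 12 months. All 4 DNAJA genes and 7 of 9 DNAJB genes were higher in knockout hearts, with medians of 0.59 and 0.41, which stayed above 0 on the TPM scale at 0.27 and 0.10. Dnaja1, a main cytosolic HSP70 partner, had 16.5 and 10.6 FPKM in knockout hearts against 7.84 and 7.78 FPKM in control hearts. Dnaja4, its heart- and muscle-expressed relative, had 50.02 and 55.05 FPKM in knockout hearts against 33.3 and 31.1 FPKM in control hearts, though 44.1% of its exonic bases are shared with Wdr61 on the opposite strand. Dnaja2 had 113 and 114 FPKM in knockout hearts against 80.0 and 80.7 FPKM in control hearts, the tightest libraries of the 3. Dnajb1, also known as HSP40 and strongly heat-inducible, had 20.2 and 7.43 FPKM in knockout hearts against 6.55 and 7.48 FPKM in control hearts, so that replicate 1 alone was high. At 3 months none of these 4 genes was apart, with differences of -0.11 to 0.13.

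The 24 DNAJC genes include many with organelle-specific roles. At 3 months 20 of the 24 (83.3%) were higher in knockout hearts, against 65.0% of all genes, with a median of 0.18 against 0.09 for all genes. On the FPKM scale 8 were higher without overlap (33.3%, against 20.1% of all genes) and 0 lower without overlap (against 4.60% of all genes). The largest were Dnajc9, a histone co-chaperone, with 8.21, 9.48 and 8.59 FPKM in knockout hearts against 6.62, 6.26 and 5.93 FPKM in control hearts (0.42 ± 0.11, limma adjusted p = 0.135), and Dnajc8, which is found with spliceosome proteins, with 35.7, 38.1 and 36.4 FPKM in knockout hearts against 29.8, 28.9 and 24.7 FPKM in control hearts. Dnajc19, a part of the mitochondrial import motor whose loss causes a cardiomyopathy in humans, had 33.4, 36.3 and 34.4 FPKM in knockout hearts against 29.2, 27.5 and 24.8 FPKM in control hearts, and its pseudogene Dnajc19-ps, which shares 64.6% of its 50-base windows, was listed at 90.2, 119 and 85.2 FPKM in knockout hearts against 90.5, 60.5 and 74.5 FPKM in control hearts. With TPM the 3-month groups of Dnajc8 and Dnajc19 overlapped, while those of Dnajc9 stayed apart. At 12 months 17 of 24 were higher (70.8%, against 51.5% of all genes), with a median of 0.12, and -0.18 on the TPM scale. Dnajc11, a protein of mitochondrial cristae, was the lowest of them with 41.6 and 27.9 FPKM in knockout hearts against 47.2 and 42.6 FPKM in control hearts.

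The genes around the ER members lay the same way at 3 months. Of 27 genes tested from a list of ER folding and unfolded protein response genes that holds no member, 24 were higher in knockout hearts at 3 months, with a median of 0.28 against 0.09 for all genes, and 13 were higher at an unadjusted p under 0.05, or 48.1%, against 15.9% of all genes. At 12 months 13 were higher and 14 lower, with a median of -0.01 (-0.30 on the TPM scale), and at an unadjusted p under 0.05 there were 5 lower and 3 higher, against 5.98% and 7.58% of all genes. Sdf2l1, a partner of BiP and Dnajb11 that is induced by ER stress, rose at 3 months with 15.5, 20.1 and 15.7 FPKM in knockout hearts against 10.1, 7.55 and 6.89 FPKM in control hearts (0.99 ± 0.16, SE, n = 3, limma adjusted p = 0.0397). It had 3.42 and 4.16 FPKM in knockout hearts of 12 months against 7.50 and 7.87 FPKM in control hearts (-0.86 ± 0.14), and its difference between ages of -1.85 ± 0.24 passed (limma adjusted p = 0.00467). Its 3-month call was lost without each of 5 of the 6 libraries in turn, with an adjusted p of up to 0.182. A further 3 genes of the list passed between ages. Manf, a secreted ER stress protein, had 72.2, 82.3 and 68.3 FPKM in knockout hearts against 51.1, 50.6 and 45.0 FPKM in control hearts at 3 months and 34.9 and 50.1 FPKM in knockout hearts against 65.3 and 56.3 FPKM in control hearts at 12 months (difference between ages -1.11 ± 0.23, limma adjusted p = 0.0481). Pdia6, a disulfide isomerase that binds BiP, had 53.6, 60.2 and 55.6 FPKM in knockout hearts against 41.1, 39.8 and 37.4 FPKM in control hearts at 3 months and 48.5 and 42.5 FPKM in knockout hearts against 57.1 and 60.8 FPKM in control hearts at 12 months (-0.88 ± 0.16, adjusted p = 0.0308). Herpud1, which serves the degradation of ER proteins, differed in the other direction, with 218 and 145 FPKM in knockout hearts of 12 months against 79.0 and 82.9 FPKM in control hearts, and overlap at 3 months (1.15 ± 0.23, adjusted p = 0.0427). Hyou1, the nucleotide exchange factor of BiP, had 10.9 and 10.4 FPKM in knockout hearts of 12 months against 16.0 and 16.9 FPKM in control hearts. Ddit3, also known as CHOP, a death-linked factor of prolonged ER stress, ran against this order at 12 months, with 27.7 and 22.4 FPKM in knockout hearts against 13.8 and 14.4 FPKM in control hearts.

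**Figure D5:**
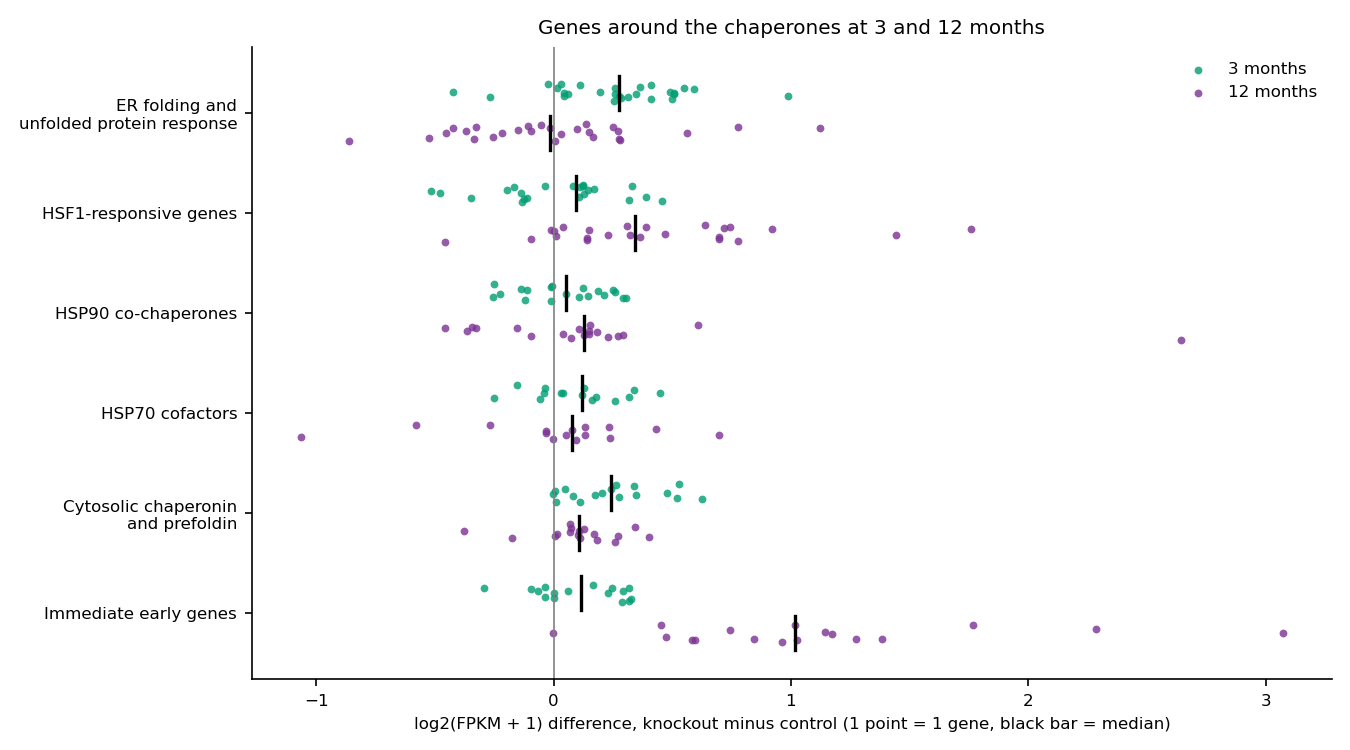
Log2(FPKM + 1) difference, knockout minus control, of each gene of 6 lists at 3 months (green) and 12 months (purple), with the median as a black bar. The ER folding list has a median of 0.28 at 3 months and -0.01 at 12 months, and the immediate early genes 0.11 and 1.02.

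Genes that textbooks list as HSF1-responsive, members included, were mostly higher at 12 months. Without Hspa1a and Hspa1b, which passed the filter through the knockout libraries alone, 19 of 22 were higher in knockout hearts of 12 months (86.4%, against 51.5% of all genes), with a median of 0.32. Of these, 8 were higher at an unadjusted p under 0.05, or 36.4%, against 7.58% of all genes, and 0 passed the adjusted test with limma. Over all 24 genes the median was 0.34, and 0.03 on the TPM scale, where the median gene stood at -0.27. At 3 months 12 of 22 were higher, with a median of 0.10 that turned to -0.0045 on the TPM scale. Bag3, the HSP70 cofactor that links Hspb8 to autophagy, had 119 and 114 FPKM in knockout hearts of 12 months against 72.2 and 70.7 FPKM in control hearts (0.70 ± 0.10, limma adjusted p = 0.162). Hsf1 itself had 13.3 and 13.7 FPKM in knockout hearts against 15.5 and 16.0 FPKM in control hearts, lower without overlap, as were 23.0% of all genes. Hsf4, another heat shock factor, differed the other way by 0.42. Of 5 heat shock factors and linked regulators tested, 2 were higher and 3 lower at 12 months, and all 5 were higher at 3 months. Small heat shock relatives and partners were also higher: Cryab had 1240.0 and 1447 FPKM in knockout hearts of 12 months against 967 and 969 FPKM in control hearts, and Des, the desmin filament protein, 855 and 1118 FPKM in knockout hearts against 590.1 and 597 FPKM in control hearts. Among HSP90 co-chaperones Fkbp5, which is induced by glucocorticoids and lowers receptor sensitivity, had 16.3 and 27.4 FPKM in knockout hearts against 2.61 and 2.49 FPKM in control hearts at 12 months (2.64 ± 0.27, limma adjusted p = 0.0889), and its difference between ages of 2.34 ± 0.27 passed (limma adjusted p = 0.00221). The other 18 co-chaperones did not pass at either age or between ages. The HSP70 cofactors and the cytosolic chaperonin and prefoldin genes had 12-month medians of 0.08 and 0.11. These turned to -0.23 and -0.21 on the TPM scale, where the median of all genes was -0.27.

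Immediate early genes, which respond quickly to many signals, were high in the same 12-month libraries as the inducible chaperones. They summed to 432 and 251 FPKM in knockout hearts against 153 and 148 FPKM in control hearts, and knockout replicate 1 was again the higher. At that age 16 of 17 were higher (median 1.02), against 51.5% of all genes, and 10 were higher at an unadjusted p under 0.05, against 7.58% of all genes. Atf3 rose with 12.5 and 15.6 FPKM in knockout hearts against 2.32 and 1.83 FPKM in control hearts (2.29 ± 0.17, SE, n = 2, limma adjusted p = 0.0449, lost without either control library). At 3 months they summed to 189 to 242 FPKM in knockout hearts against 174 to 199.6 FPKM in control hearts. Their part in the chaperone values was not tested.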

How the data were processed

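The authors deposited FPKM per gene for each library in 1 table for each age, and the 12-month table is named as one from which outliers were taken out. The submitters' processing notes name FastQC, TopHat2 2.1.0, STAR 2.5.1b, Cufflinks 2.1.1 and build GRCm38, with no role or order. No count or pooled column was used. Rows with the same identifier were merged (69 in the 3-month table). FPKM values were tested as log2(FPKM + 1) with limma 3.58.1 (R 4.3.3; empirical Bayes with trend, Benjamini-Hochberg over genes whose mean reached 1 FPKM, adjusted p under 0.05), separately at each age. The difference between ages was a contrast over all 10 libraries. The fit was tested on simulated data. Low values were whole reads in 86.1% to 90.3% of cases at 12 months (within 0.05 of a read) and 17.2% to 36.3% at 3 months, so depth is known for 12 months only.

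Exon overlaps and shared 50-base windows come from GENCODE M21 and promoters from RefSeq. Alternatives were pseudocounts of 0.1 and 0.5, a minimum of 5 FPKM or none, TPM and median-of-ratios scaling, no trend, the replicate block, each library left out, and 1 fit of all libraries. The members, the gene lists and the motifs were chosen with earlier results of these data known. Genes were named by rule: called genes, the 8 largest differences without overlap in each direction, the HSP90, HSP70 and small heat shock genes, the 5 lowest p between ages, and the 2 lowest p of each list. Some genes that met these rules are not named. Others, such as Dnajb1, Dnaja4, Dnajc3, Pdia6 and Herpud1, were chosen after their values were seen.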

Additional observations from a re-analysis of the deposited data

Results flagged for a closer look

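A pair of chaperone genes had knockout minus control differences that differed between the ages by a test of that difference in limma. For Dnajb4 the log2 difference at 12 months minus that at 3 months was 1.09 ± 0.19 (adjusted p = 0.0198), and both knockout libraries of 12 months were high. For Hspa5 it was -1.02 ± 0.19 (adjusted p = 0.0276). On the FPKM scale each of its knockout libraries lay above each control library at 3 months and below each at 12 months. With TPM its 3-month groups overlapped. The ages differ in library preparation, and at 12 months in sex-linked transcripts between the groups, so that age, preparation and sex cannot be told apart.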

How the results depend on the processing

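No member passed at 3 months in any alternative but 1, where genes under 5 FPKM were left out and 1 member passed. The count over all genes at 3 months was 91 and became 10 without a filter, 142 with TPM, 59 with median-of-ratios and 29 with the replicate block. Members without overlap at 3 months numbered 9 with TPM and 26 with median-of-ratios, against 17 on the FPKM scale. No share of all genes is set beside these counts, so they are not read as results about the members. At 12 months 6 of 61 members and 437 of 11580 genes passed in the fit of all 10 libraries, and 17 genes passed without a filter. The members' median at that age was -0.12 with TPM, against -0.27 for all genes, and 0.20 with median-of-ratios, against 0.01 for all genes. Between ages 1 member passed with TPM, 4 with median-of-ratios and 0 with the replicate block, which called 55 genes in all. Deviations of same-numbered libraries from their group means had correlations of -0.46 to -0.12 at 3 months and -0.01 at 12 months. With so few libraries the deviations within a group are tied to each other, so these values cannot settle whether the numbers pair samples. The block left 0 members called at either age.

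Leaving out each library in turn gave 24 to 77 called genes at 3 months, 0 to 4208 at 12 months and 39 to 783 between ages. Members called ran from 0 to 0 at 3 months, 0 to 25 at 12 months and 0 to 7 between ages, members without overlap from 18 to 30 at 3 months and 45 to 55 at 12 months, and the members' median from 0.08 to 0.17 at 3 months and 0.17 to 0.24 at 12 months.

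Single genes turned in sign with TPM at 12 months: Dnajc30 (-0.029), Hspa12b (-0.15), Hspa2 (-0.031), Hspa4 (-0.18), Hspa4l (-0.078), Hspa9 (-0.12), Hspb11 (-0.033), Hspb8 (-0.18), Hspd1 (-0.31), Hspe1 (-0.32) and the prefoldin-family gene Pdcl3 (-0.061). TPM moved the median of all genes at 12 months to -0.27, and none of these genes turned at that age with median-of-ratios. At 3 months Dnajb14 turned to -0.073 with TPM and -0.061 with median-of-ratios, and Hspb7 to -0.045 and -0.049. Leaving out single libraries turned Dnajb14 (-0.034 to 0.077), Hsp90aa1 (-0.0025 to 0.34) and Hspb7 (-0.044 to 0.15) at 3 months, and Hspb8 (-0.13 to 0.41), Hspd1 (-0.16 to 0.18), Hspe1 (-0.13 to 0.13) and Hspa13 (-0.18 to 0.084) at 12 months. Of 1582 values of named genes under alternatives, 1455 kept direction and side of the threshold, 27 lost the call, 74 gained it and 26 turned in sign; the cause was not tested. With 2 libraries a group at 12 months and unknown depth at 3 months, small differences of genes at low level were not detectable.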

Other observations

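Within the knockout group of 12 months, replicate 1 had the higher FPKM for 16 of 24 HSF1-responsive genes (66.7%) and 13 of 17 immediate early genes (76.5%), against 50.9% of all genes tested and 44.4% of the chaperone genes. Fos had 17.9 and 1.83 FPKM in knockout hearts of 12 months against 0.937 and 1.39 FPKM in control hearts. The clock and glucocorticoid-responsive gene Per1 had 26.9 and 10.9 FPKM in knockout hearts against 3.16 and 3.44 FPKM in control hearts, and its difference between ages of 2.23 passed (limma adjusted p = 0.0259). Fos was chosen after its values were seen, and Per1 was named by the rule of the 2 lowest p of its list.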
